A study of Mus musculus with 12 samples.

Results

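Glycolysis genes were followed in mature osteoblasts from PTH-treated mice and in osteoblastic cells carrying extra *Slpi*. The 10 genes, *Slc2a1*, *Hk1*, *Hk2*, *Pfkl*, *Pfkfb3*, *Aldoa*, *Pgk1*, *Eno1*, *Ldha* and *Pdk1*, were chosen by name and function; the rule used no measured values, although earlier results of these data were known. All 10 were listed among the 25897 genes of the deposited expression tables, and all 10 reached 1 FPKM (a read count scaled to transcript length and library size) in at least 1 library of each experiment. For the in vivo experiment, female Col2.3-ECFP mice, 12 weeks old, were injected on 5 days per week for 3 weeks with vehicle (phosphate-buffered saline) or with human PTH (1-34), the latter at a daily 40 µg/kg. Live, lineage-negative cells (7AAD-Lin-CD45-ECFP+) were sorted from crushed and digested bones 24 h after the last injection, with 3 libraries per group from different mice. All these mice carried the reporter, in which the Col2.3 fragment of the type I collagen promoter drives ECFP in mature osteoblasts, so earlier osteoblast-lineage cells were outside the gate. For the in vitro experiment, MC3T3-E1 cells, a clonal line from mouse calvaria, were transduced with the empty pMX-IRES-Puro retrovirus (mock) or with the same vector carrying mouse *Slpi* cDNA (Slpi), and puromycin-resistant stable transformants were harvested before confluence, with 3 libraries per group. Nothing states that these 3 libraries came from separate transductions or cultures, so their p-values measure only the spread between these libraries.

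Glycolysis breaks glucose down to pyruvate in the cytosol and yields ATP without oxygen. Osteoblasts are known for taking up much glucose and releasing most of it as lactate even when oxygen is present, and PTH is known to stimulate this aerobic glycolysis in osteoblast-lineage cells. Hypoxia-inducible factor (HIF) is the classical transcriptional activator of the pathway, and it binds a short core motif found near many of these genes. The examined genes cover glucose uptake (*Slc2a1*), glucose phosphorylation (*Hk1*, *Hk2*), the committed phosphofructokinase step and its regulator (*Pfkl*, *Pfkfb3*), the lower pathway (*Aldoa*, *Pgk1*, *Eno1*) and the fate of pyruvate (*Ldha*, *Pdk1*).

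The promoters of the 6 genes called in either comparison below are shown, because HIF and the cAMP-responsive factor CREB, a target of PTH receptor signalling, are the factors usually named for this pathway. Each run is the 250 bases before the start site listed first by RefSeq (build GRCm38.p6, the sequence of mm10), read 5′ to 3′ on the gene's own strand. Capitals mark ACGTG and GCGTG, the HIF core, and TGACG, the CREB half-site, on either strand, and adjoining matches run together where they overlap.
Pfkfb3 (chr2:11553930-11554179, minus strand): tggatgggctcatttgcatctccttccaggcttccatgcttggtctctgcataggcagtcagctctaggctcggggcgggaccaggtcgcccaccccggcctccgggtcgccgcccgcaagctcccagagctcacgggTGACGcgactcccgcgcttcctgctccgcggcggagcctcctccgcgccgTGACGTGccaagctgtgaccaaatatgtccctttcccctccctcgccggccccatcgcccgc
Hk2 (chr6:82774455-82774704, minus strand): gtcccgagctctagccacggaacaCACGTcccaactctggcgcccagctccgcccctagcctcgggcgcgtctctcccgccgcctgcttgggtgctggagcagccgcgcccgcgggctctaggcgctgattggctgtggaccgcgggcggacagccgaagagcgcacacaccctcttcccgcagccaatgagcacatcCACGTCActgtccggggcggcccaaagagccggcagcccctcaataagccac
Pgk1 (chrX:106186850-106187099, plus strand): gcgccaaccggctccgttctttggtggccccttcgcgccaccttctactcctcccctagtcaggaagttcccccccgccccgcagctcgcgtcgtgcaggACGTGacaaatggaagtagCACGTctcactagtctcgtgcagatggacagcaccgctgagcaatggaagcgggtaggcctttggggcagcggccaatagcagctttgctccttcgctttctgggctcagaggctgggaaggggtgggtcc
Ldha (chr7:46845554-46845803, plus strand): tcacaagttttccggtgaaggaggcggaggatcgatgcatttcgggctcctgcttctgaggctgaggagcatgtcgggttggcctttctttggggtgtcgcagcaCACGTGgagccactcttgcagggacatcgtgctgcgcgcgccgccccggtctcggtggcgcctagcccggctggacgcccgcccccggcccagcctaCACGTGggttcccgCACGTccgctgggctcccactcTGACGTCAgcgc
Hk1 (chr10:62379909-62380158, minus strand): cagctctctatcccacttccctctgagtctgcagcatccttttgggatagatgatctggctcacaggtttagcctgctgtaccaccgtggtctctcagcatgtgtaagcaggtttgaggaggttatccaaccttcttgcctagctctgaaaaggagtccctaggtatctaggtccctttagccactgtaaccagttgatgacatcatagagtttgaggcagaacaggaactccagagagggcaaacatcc
Pdk1 (chr2:71872974-71873223, plus strand): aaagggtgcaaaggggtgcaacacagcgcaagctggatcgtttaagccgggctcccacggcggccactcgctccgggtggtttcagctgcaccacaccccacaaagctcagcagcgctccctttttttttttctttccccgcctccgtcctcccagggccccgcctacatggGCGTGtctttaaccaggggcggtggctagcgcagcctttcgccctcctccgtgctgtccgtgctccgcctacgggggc

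Of the 10 genes, 5 held ACGTG in this window, against 16.6% of the windows of 27025 genes searched alike. GCGTG was found in 4 of the 10, against 28.2% of all windows, and TGACG in 3 of the 10, against 17.9%. Either form of the HIF core, ACGTG or GCGTG, was in 8 of the 10 windows, against 38.6% of all. *Ldha* held the most, with 5 ACGTG matches, of which 4 were the opposite-strand readings of a pair of CACGTG palindromes that begin 145 and 48 bases before the start. Its TGACG matches 12 and 9 bases before the start are opposite-strand readings of a palindrome. In *Pgk1* the matches lay 150 and 131 bases before the start. *Hk2* held ACGTG 226 and 52 bases before the start, the latter sharing bases with TGACG, and in *Pfkfb3* an ACGTG likewise shared bases with a TGACG that began 62 bases before the start. *Pdk1* held 1 GCGTG, and the first-listed windows of *Hk1* and *Aldoa* held none of these motifs. At the second listed start *Hk1* held 3 GCGTG and *Pdk1* none. *Aldoa* held 1 ACGTG in each of its other, overlapping windows. These are matches of letters. No binding was measured, other start sites are listed for *Hk1*, *Pfkfb3*, *Aldoa*, *Eno1*, *Ldha* and *Pdk1*, and the start used in these cells was not measured.

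Read depth was inferred from the lowest FPKM values, which fall on multiples of what 1 read is worth. In a transcript of 1 kilobase, 1 read was worth 0.122 to 0.216 FPKM in the osteoblast libraries and 0.0384 to 0.0442 FPKM in the more deeply sequenced MC3T3-E1 libraries. The glycolysis genes therefore rested on 28.7 to 2818 reads per kilobase in osteoblasts and on 109 to 11165 in MC3T3-E1 cells. *Slpi*, the check of the labels, was 2.21 ± 0.513 FPKM in vehicle and 28.2 ± 8.88 FPKM in PTH libraries (mean ± SD, n = 3 here and throughout), and 386 ± 9.20 against 1975 ± 129 FPKM in mock and Slpi cells. Transcripts of other cell types moved with PTH in the sorted cells. The summed FPKM of 10 T cell markers ran from 138 to 239 in vehicle and from 1.39 to 26.2 in PTH libraries, with 7 of 8 tested markers lower, and that of neutrophil markers (10 of 11 listed were in the table) from 377 to 470 against 702 to 2362, with 7 of 10 higher. Of the 10 osteoblast markers, *Alpl* and *Spp1* were called higher, and *Col1a1* and *Col1a2* were listed at 0 in vehicle replicate 3 and all PTH libraries, which for the leading collagen genes of an osteoblast is a failed estimate. PTH replicate 2 stood apart. The summed FPKM of 17 striated muscle markers was 2373 in that library and 7.52 to 25.6 in the other osteoblast libraries, and *Myl2* and *Actc1*, heart muscle genes, were among its highest. The PTH differences of the 10 genes and the counts over gene lists are therefore given with and without PTH replicate 2, and the part of these cells in the results was not tested. In bulk RNA, fewer cells of a type and less RNA per cell cannot be told apart. In MC3T3-E1 cells the muscle sum was at most 3.97 FPKM and the T cell and neutrophil sums at most 0.237 and 1.74 FPKM, while 6 of 8 cell-cycle markers were higher in Slpi cells, with sums of 453 to 478 in mock and 600 to 652 in Slpi libraries.

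In PTH-treated osteoblasts 1 of the 10 genes passed the threshold, *Pfkfb3*, which was 1.52-fold higher, and the mean levels of *Hk1* and *Ldha* lay within 1.09-fold of vehicle. *Eno1* was lower in every PTH library than in any vehicle library but missed the threshold. *Slc2a1*, *Aldoa* and *Pgk1* were lower in PTH replicates 1 and 3 than in any vehicle library and far higher in PTH replicate 2. By limma's moderated test on log2(FPKM + 1), with Benjamini-Hochberg adjustment over 13004 genes and a threshold of 0.05, 1 of the 10 was higher, where 6.38% of all genes were higher, and 0 of the 10 were lower, where 8.85% of all genes were lower; at an unadjusted p under 0.05, 1 was higher and 1 lower. Groups did not overlap for 1 gene higher, against 19.5% of all genes, and 1 lower, against 20.9%. The median difference of the 10 was 0.05 on the log2 scale (0.00 with libraries rescaled to equal summed FPKM and -0.08 after quantile normalization), beside 0.01 over all genes tested. Without PTH replicate 2, 1 was higher and 1 lower, against 3.93% and 5.38% of all genes, and the median was -0.29, beside -0.003 over all genes tested. Over all genes the split of calls moved with scaling, from 830 higher and 1151 lower to 529 and 1149 after rescaling the libraries to equal summed FPKM and to 1050 and 878 after median centring, while *Pfkfb3* stayed the single call among the 10.

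**Figure D1:**
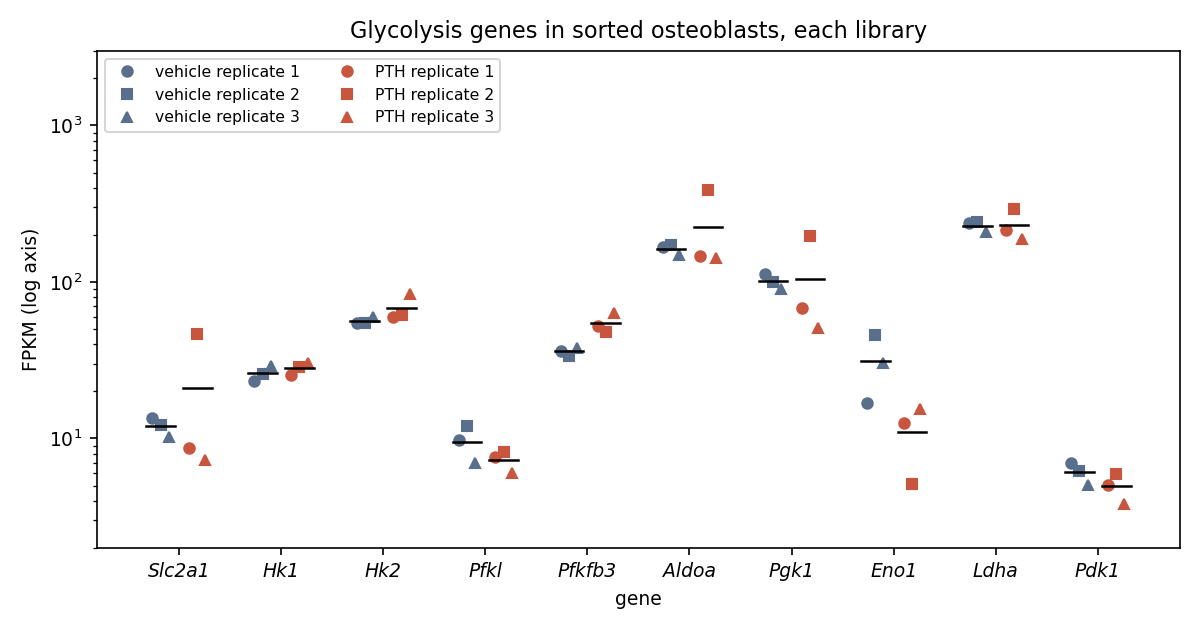
FPKM on a log axis for each gene in the 3 vehicle (blue) and 3 PTH (red) osteoblast libraries, with symbols for replicate number and a black line at each group mean. PTH replicate 2, the red squares, is far above the other libraries for *Slc2a1*, *Aldoa* and *Pgk1*, and the red *Pfkfb3* points all lie above the blue ones.

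Glucose enters through *Slc2a1*, which encodes the transporter GLUT1 (chr4:119108711-119137983 in mm10, plus strand). Its FPKM was 13.5, 12.3 and 10.3 in vehicle replicates 1 to 3 and 8.64, 46.8 and 7.27 in PTH replicates 1 to 3. PTH replicate 2 was higher than all other libraries, and the other 2 PTH libraries were the lowest of the 6. The difference on the log2 scale was 0.27 (SE 0.62, adjusted p = 0.781), with a 95% interval from -1.19 to 1.73, and turned to -0.54 (SE 0.16, adjusted p = 0.0823) without PTH replicate 2.

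Hexokinases trap glucose in the cell as glucose 6-phosphate. *Hk2*, the inducible and insulin-responsive form (chr6:82725025-82774454, minus strand), was at 54.4, 54.5 and 60.0 FPKM in vehicle and 59.4, 61.5 and 84.2 FPKM in PTH libraries. The groups overlapped, PTH replicate 3 was the highest, and the log2 difference was 0.26, with a 95% interval of -0.09 to 0.60 (adjusted p = 0.262). *Hk1*, the broadly expressed form (chr10:62268855-62379908, minus strand), ran from 23.4 to 29.0 FPKM in vehicle and from 25.6 to 30.6 in PTH libraries. Its log2 difference was 0.12, with an interval of -0.17 to 0.40 (adjusted p = 0.517). *Hk2* made up 67.5% ± 1.17 of the summed FPKM of *Hk1*, *Hk2* and *Hk3* in vehicle and 68.5% ± 3.60 in PTH libraries, a share that overlapped between groups (exact permutation test, two-sided, p = 0.9; the smallest p that 3 against 3 can give is 0.10). PTH replicate 2 had the lowest share, 66.1%, close to the 66.4% of vehicle replicate 3. Without it the log2 differences were 0.32 for *Hk2* and 0.10 for *Hk1*, still uncalled.

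*Pfkfb3* encodes the enzyme with the highest kinase activity of its family, which makes fructose 2,6-bisphosphate, the strongest activator of phosphofructokinase (chr2:11471433-11554077, minus strand). It measured 36.3, 33.7 and 37.8 FPKM in vehicle and 52.0, 47.7 and 63.7 FPKM in PTH libraries. Every PTH library was above every vehicle library, and PTH replicate 2 was the lowest of the PTH group. The log2 difference was 0.58 (SE 0.13, 95% interval 0.28 to 0.88, adjusted p = 0.0316), and 0.67 (adjusted p = 0.0415) without PTH replicate 2. The call depended on which libraries and which model were used. With all libraries it was lost with no filter on low FPKM (limma, adjusted p = 0.0984) and with an unmoderated linear model (adjusted p = 0.0972). It was lost without vehicle replicate 1, 2 or 3 (adjusted p = 0.118, 0.121 and 0.0573) or PTH replicate 1 (0.0796), with log2 differences of 0.53 to 0.61, and kept without PTH replicate 3 (0.46, adjusted p = 0.0438). Without vehicle replicate 1 or 2, only 1 and 0 of all 13004 genes passed the adjusted threshold in limma, so no other PTH call named here held there either, although 3187 and 3108 genes had an unadjusted p under 0.05.

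The sister enzyme *Pfkfb4* rose more. It measured 8.93, 6.99 and 6.89 FPKM in vehicle and 18.1, 14.1 and 22.6 FPKM in PTH libraries, with a log2 difference of 1.15 (SE 0.19, adjusted p = 0.0175) and of 1.31 without PTH replicate 2. Since both rose, *Pfkfb3* remained the main form at a somewhat smaller share. It held 76.2% ± 2.48 of the family's summed FPKM in vehicle and 71.7% ± 1.33 in PTH libraries, the groups not overlapping (exact permutation p = 0.1), while *Pfkfb4* went from 16.1% ± 1.90 to 23.8% ± 1.90 (p = 0.1 by the same exact test). Without PTH replicate 2 the PTH means were 70.9% for *Pfkfb3* and 24.9% for *Pfkfb4*.

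*Pfkl* encodes the liver-type subunit of phosphofructokinase, the committed step (chr10:77986947-78010083, minus strand). Its FPKM was 9.72, 11.9 and 6.93 in vehicle and 7.57, 8.14 and 6.01 in PTH libraries, overlapping groups with a log2 difference of -0.33 (SE 0.20, adjusted p = 0.291; -0.41 without PTH replicate 2). Its share of the 3 subunit genes was 22.5% ± 2.78 in vehicle and 23.2% ± 2.39 in PTH libraries (24.6% without PTH replicate 2). The other subunits exchanged places. *Pfkm*, the muscle-type subunit, rose from 9.81 ± 0.657 to 14.5 ± 1.83 FPKM (log2 difference 0.52, adjusted p = 0.0385) and *Pfkp*, the platelet-type subunit, fell from 22.6 ± 3.63 to 9.91 ± 4.88 FPKM (log2 difference -1.203, adjusted p = 0.0487). The *Pfkm* share was 21.6%, 21.4% and 28.2% in vehicle and 43.7%, 41.8% and 54.9% in PTH libraries, and that of *Pfkp* 55.3%, 53.8% and 52.3% against 31.3%, 37.7% and 21.1%. Neither share overlapped between groups (exact permutation p = 0.1 each). *Pfkm* is also the subunit of skeletal muscle, and PTH replicate 2, the library rich in muscle transcripts, had the highest *Pfkm* level, at 16.6 FPKM against 13.2 and 13.7 FPKM in the other PTH libraries; without it *Pfkm* missed the threshold (log2 difference 0.42, adjusted p = 0.0729) and *Pfkp* passed it (-1.53, adjusted p = 0.0394). *Pfkp* is also expressed in blood cells. The fall of the T cell markers went the same way, while the summed neutrophil and erythroid markers were higher in PTH libraries. The part of muscle or blood cells was not tested.

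In the lower pathway, PTH replicate 2 set the result. *Aldoa*, aldolase A, which splits fructose 1,6-bisphosphate (chr7:126795234-126800751, minus strand), was at 166, 173 and 148 FPKM in vehicle and 146, 384 and 142 FPKM in PTH libraries. *Pgk1*, phosphoglycerate kinase, which makes the first ATP of the pathway (chrX:106187100-106203699, plus strand), was at 112, 101 and 89.7 FPKM in vehicle and 68.6, 195 and 50.9 FPKM in PTH libraries. For both genes PTH replicate 2 was the highest of the 6 libraries and PTH replicates 1 and 3 the lowest. With all libraries the log2 differences were 0.30 for *Aldoa* (SE 0.36, adjusted p = 0.592) and -0.18 for *Pgk1* (SE 0.45, adjusted p = 0.794). Without PTH replicate 2 that of *Aldoa* was -0.17 (adjusted p = 0.261), and *Pgk1* was called lower, at -0.75 (SE 0.16, 95% interval -1.15 to -0.35, adjusted p = 0.0478). In the absence of PTH replicate 3 instead, *Pgk1* had a log2 difference of 0.21 (adjusted p = 0.770). *Aldoa* was 97.0% ± 0.906 of aldolase FPKM in vehicle and 98.7% ± 0.774 in PTH libraries (99.02% without PTH replicate 2).

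*Eno1* encodes α-enolase, which forms phosphoenolpyruvate (chr4:150236721-150248879, plus strand). It measured 16.9, 45.9 and 30.3 FPKM in vehicle and 12.5, 5.08 and 15.5 FPKM in PTH libraries. The PTH group lay below the vehicle group, by 1.43 on the log2 scale (SE 0.46, adjusted p = 0.0771; without PTH replicate 2 the difference was -0.99, adjusted p = 0.143), but vehicle itself spread 2.71-fold. The gene has a near-identical copy, *Eno1b*, and reads that fit both can be divided between them in different ways, so the level of either is uncertain. The copies together measured 32.7 ± 14.2 FPKM in vehicle and 14.4 ± 1.17 FPKM in PTH libraries, a log2 difference of -1.04, also without overlap (exact permutation p = 0.1). *Eno2*, the neuronal form, was 20.6 FPKM in PTH replicate 2 and at most 1.55 FPKM elsewhere.

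At the end of the pathway, *Ldha*, the subunit of lactate dehydrogenase that favours lactate formation (chr7:46841475-46855627, plus strand), had the highest group means of the 10, at 239, 241 and 207 FPKM in vehicle and 213, 292 and 189 FPKM in PTH libraries. In PTH replicate 2 *Aldoa*, at 384 FPKM, was above it. The *Ldha* groups overlapped, and the log2 difference was -0.01, with an interval of -0.40 to 0.39 (adjusted p = 0.980), and was -0.19 (adjusted p = 0.282) without PTH replicate 2. *Ldhb*, the subunit of the heart form, rose from 6.67 ± 1.27 to 19.6 ± 9.81 FPKM (log2 difference 1.33, SE 0.32, adjusted p = 0.0380). The *Ldha* share of lactate dehydrogenase FPKM fell without overlap, from 97.5%, 97.7% and 96.2% in vehicle to 94.8%, 90.5% and 91.9% in PTH libraries (exact permutation p = 0.1). *Ldhb* is abundant in heart muscle, and PTH replicate 2 held 30.6 FPKM of it against 11.6 and 16.6 FPKM in the other PTH libraries; without that library the log2 difference was 0.97 (adjusted p = 0.0484) and the PTH mean of the *Ldha* share 93.4%. *Pdk1*, pyruvate dehydrogenase kinase 1, which keeps pyruvate out of the mitochondrial cycle (chr2:71873224-71903858, plus strand), had the lowest group means, at 6.98, 6.21 and 5.07 FPKM in vehicle and 5.05, 5.95 and 3.80 FPKM in PTH libraries, although *Eno1*, at 5.08 FPKM, was below it in PTH replicate 2. Its log2 difference was -0.26 (SE 0.18, adjusted p = 0.344; -0.39 without PTH replicate 2), and *Pdk4*, another kinase of the family, held 72.1% ± 2.31 of the family's FPKM in vehicle against 6.89% ± 1.49 for *Pdk1*.

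Per transcript length, the order in vehicle was *Ldha* (229 FPKM), *Aldoa* (163), *Pgk1* (101), *Hk2* (56.3), *Pfkfb3* (35.9), *Eno1* (31.0), *Hk1* (26.1), *Slc2a1* (12.02), *Pfkl* (9.53) and *Pdk1* (6.09). The ranges of *Pfkfb3*, *Eno1* and *Hk1* overlapped from each to the next, as did those of *Slc2a1*, *Pfkl* and *Pdk1*, and the other neighbours did not overlap. In PTH libraries *Eno1* came after *Slc2a1*, and 7 of the 9 neighbouring pairs overlapped. The pairs that did not were *Pfkfb3* with *Hk1* and *Pfkl* with *Pdk1*. This order of *Eno1* and *Slc2a1* rested on PTH replicate 2, since in PTH replicates 1 and 3 *Eno1* (12.5 and 15.5 FPKM) was above *Slc2a1* (8.64 and 7.27 FPKM), and without PTH replicate 2 only 3 of the 9 neighbouring pairs overlapped. The median of the 10 log2 shifts from the vehicle mean was 0.25 in PTH replicate 2 but -0.19 and -0.41 in PTH replicates 1 and 3.

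Of 15 further glycolytic enzymes tested, 2 were higher with PTH (*Pfkm* and *Ldhb*) and 1 was lower (*Pfkp*), where 6.38% of all genes were higher and 8.85% lower, and the median log2 difference was 0.00. The housekeeping enzymes *Gapdh* (log2 difference -0.52, adjusted p = 0.116) and *Pkm* (0.10, adjusted p = 0.688) did not pass. Without PTH replicate 2 the median of the 15 was -0.36, with 12 of 15 lower in sign, *Pfkp* called lower and *Ldhb* called higher. None of 6 other glucose transporters passed, with 2 higher and 0 lower at an unadjusted p under 0.05; *Slc2a10* was close (log2 difference 0.61, adjusted p = 0.0522) and was called higher without PTH replicate 2 (0.75, adjusted p = 0.0462) and after quantile normalization or median centring. Of 7 genes of lactate and pyruvate transport, *Slc16a1*, the lactate transporter MCT1, fell from 20.5 ± 0.926 to 13.2 ± 2.51 FPKM (log2 difference -0.61, adjusted p = 0.0396) and *Bsg*, the chaperone of these transporters, rose from 158 ± 7.81 to 223 ± 16.6 FPKM (0.49, adjusted p = 0.0241). *Slc16a3*, the lactate exporter MCT4, was higher in all PTH libraries (2.80, 2.18 and 2.26 against 5.60, 20.4 and 3.84 FPKM) but missed the threshold (log2 difference 1.37, adjusted p = 0.110). Its highest value was in PTH replicate 2. Without that library *Bsg* kept its call and *Slc16a1* lost it (adjusted p = 0.0635); *Bsg* also lost it after quantile normalization (0.152) and *Slc16a1* after rescaling to equal sums (0.0531) or median centring (0.0509).

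Outside the glycolytic chain, calls were read against the same shares of 6.38% of all genes higher and 8.85% lower, or 3.93% and 5.38% without PTH replicate 2. None of 10 genes of the pyruvate dehydrogenase complex and its control passed, with 2 higher and 1 lower at an unadjusted p under 0.05, and none did without PTH replicate 2 (1 and 1 at an unadjusted p under 0.05), while *Pdp1* was called higher after quantile normalization or median centring. None of 10 glycogen genes passed, with 1 higher and 2 lower at an unadjusted p under 0.05 and a median log2 difference of 0.15. Without PTH replicate 2 that median was -0.11 and *Pygb*, a glycogen phosphorylase, was called lower (-1.02, adjusted p = 0.0377), while *Pygl*, the liver form, was called higher after quantile normalization or median centring. The called genes were *Pck2* of 5 in gluconeogenesis (log2 difference 0.51), *H6pd* and *Pgls* of 8 in the pentose phosphate pathway (0.57 and 0.46) and *Idh3a*, a subunit of isocitrate dehydrogenase, of 16 in the tricarboxylic acid cycle, which fell from 26.0 ± 2.22 to 13.6 ± 3.66 FPKM (-0.92, adjusted p = 0.0308; -1.03 without PTH replicate 2, adjusted p = 0.0475). Without that library *Fh1*, fumarate hydratase, was also called lower (-0.76, adjusted p = 0.0482), and the median of the 16 went from -0.12 to -0.20. None of 9 tested genes of HIF and its hydroxylases passed, with 1 higher and 0 lower at an unadjusted p under 0.05, nor without PTH replicate 2 (0 and 0). Of 15 HIF targets outside glycolysis, 3 rose and 2 fell, with a median log2 difference of 0.24 (2 and 2 called and a median of 0.04 without PTH replicate 2). Those that rose were *P4ha1* and *P4ha2*, prolyl 4-hydroxylases that modify collagen, at 75.5 ± 7.57 against 138 ± 19.8 FPKM (log2 difference 0.86, adjusted p = 0.0167) and 49.5 ± 6.49 against 87.8 ± 21.5 FPKM (0.80, adjusted p = 0.0354), and *Vegfa*, the vascular growth factor (0.65, adjusted p = 0.0251). Those that fell were *Ero1l*, an oxidase of the endoplasmic reticulum (-1.18, adjusted p = 0.0254), and *Car12*, a carbonic anhydrase (-0.58, adjusted p = 0.0214). Without PTH replicate 2, *Pck2*, *H6pd*, *Pgls* and *Vegfa* lost the call (adjusted p = 0.0515 to 0.0814), while *P4ha1* (0.96), *P4ha2* (0.93), *Ero1l* (-1.33) and *Car12* (-0.56) kept it (adjusted p = 0.0377 to 0.0474). *Vegfa*, *Car12*, *Slc2a10*, *Pdp1*, *Pygb*, *Pygl* and *Fh1* are named to complete these counts and were picked after their values were seen.

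In MC3T3-E1 cells, *Slpi* came with higher *Hk2*, *Pgk1* and *Ldha* and lower *Hk1* and *Pdk1*, each by less than 1.5-fold and each with groups that did not overlap. *Slc2a1*, *Pfkl*, *Pfkfb3*, *Aldoa* and *Eno1* did not pass the threshold. By the same test over 11466 genes, 3 of the 10 were higher, where 31.9% of all genes were, and 2 of the 10 were lower, where 28.9% of all were. Groups did not overlap for the same 3 and 2 genes, against 34.9% of all genes higher and 32.2% lower. These shares were near the background of this comparison, and the median log2 difference of the 10 was -0.01 beside 0.00 over all genes tested. Scaling mattered for direction across the genome. The summed FPKM was 541932 to 546286 in mock and 567905 to 599746 in Slpi libraries, and after rescaling each library to the same sum, calls over all genes went from 3658 higher and 3315 lower to 2430 higher and 4438 lower, the median of all genes to -0.08 and that of the 10 to -0.11. All 5 calls kept their direction and their side of the threshold under that rescaling and every other alternative tried.

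**Figure D2:**
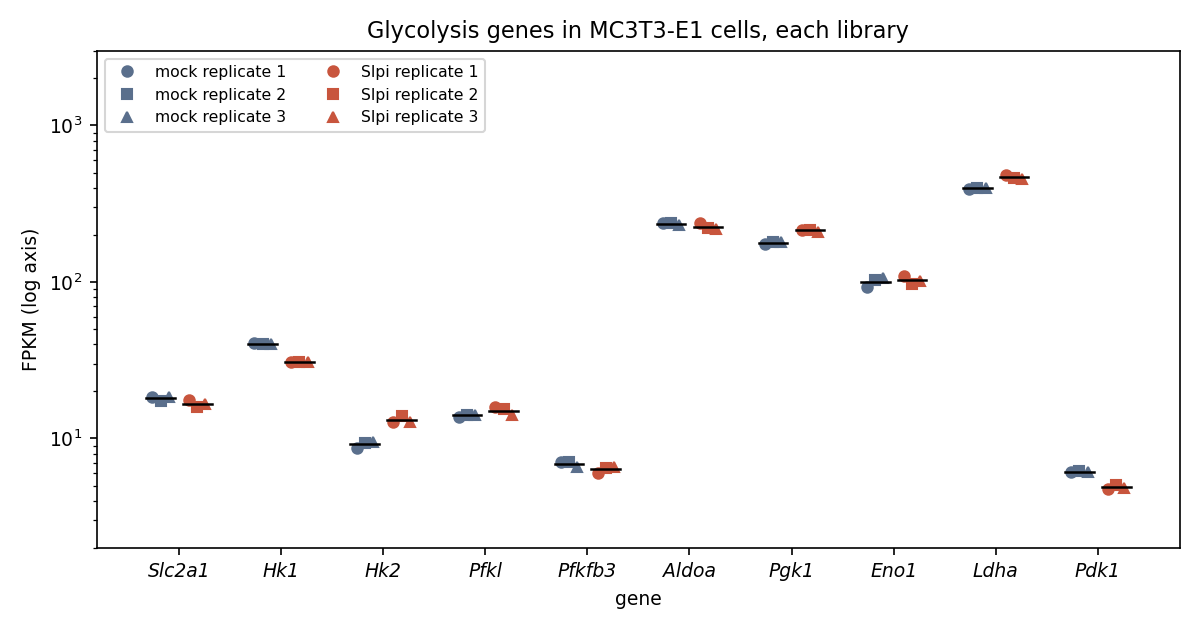
FPKM on a log axis for each gene in the 3 mock (blue) and 3 Slpi (red) MC3T3-E1 libraries, with symbols for replicate number and a black line at each group mean. Replicates lie close together, and the groups are apart for *Hk1*, *Hk2*, *Pgk1*, *Ldha* and *Pdk1*.

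The hexokinases moved in opposite directions. *Hk2* was at 8.75, 9.33 and 9.42 FPKM in mock and 12.7, 13.9 and 12.7 FPKM in Slpi libraries, 1.43-fold higher (log2 difference 0.47, SE 0.05, 95% interval 0.36 to 0.59, adjusted p = 9.46e-05). *Hk1* was at 40.8, 40.2 and 40.0 FPKM in mock and 30.8, 30.7 and 30.6 FPKM in Slpi libraries (log2 difference -0.38, SE 0.03, adjusted p = 2.22e-05). The *Hk2* share of hexokinase FPKM was 17.6%, 18.8% and 19.1% in mock and 29.2%, 31.2% and 29.4% in Slpi libraries, with no overlap (exact permutation p = 0.1). *Hk1* stayed the main form in both groups, whereas *Hk2* was the main form in the sorted osteoblasts. The 2 experiments were normalized apart and the labels give different library kits, so levels between them were not tested.

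*Pgk1* measured 175, 179 and 181 FPKM in mock and 216, 216 and 209 FPKM in Slpi libraries, 1.199-fold higher (log2 difference 0.26, SE 0.03, adjusted p = 1.44e-04). *Ldha* measured 393, 400 and 399 FPKM in mock and 485, 461 and 456 FPKM in Slpi libraries, 1.18-fold higher (log2 difference 0.23, SE 0.03, adjusted p = 4.36e-04). Both genes were thus higher in every Slpi library than in any mock library. *Pdk1* measured 6.09, 6.15 and 6.10 FPKM in mock and 4.73, 5.06 and 4.80 FPKM in Slpi libraries (log2 difference -0.28, SE 0.05, adjusted p = 0.00114). *Ldhb* fell from 45.6 ± 2.08 to 32.9 ± 1.25 FPKM (log2 difference -0.46, adjusted p = 6.07e-05), and the *Ldha* share of lactate dehydrogenase went from 89.7% ± 0.341 to 93.4% ± 0.234 (exact permutation p = 0.1). *Pdk4* fell more than *Pdk1*, from 40.2 ± 1.90 to 23.8 ± 1.57 FPKM (log2 difference -0.73, adjusted p = 1.72e-05). The *Pdk1* share of its family was 7.14% ± 0.205 in mock and 7.47% ± 0.411 in Slpi libraries, with overlap, while that of *Pdk4* went from 46.9% ± 1.16 to 36.5% ± 1.82.

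The remaining 5 genes had narrow intervals. *Slc2a1* was at 18.4, 17.4 and 18.3 FPKM in mock and 17.5, 15.9 and 16.7 FPKM in Slpi libraries (log2 difference -0.10, 95% interval -0.21 to 0.00, adjusted p = 0.0780), and was called lower without Slpi replicate 1 (-0.14, adjusted p = 0.0317), after quantile normalization (-0.13, adjusted p = 0.0413) and after rescaling to equal sums (-0.20, adjusted p = 0.00568). *Pfkl* ran from 13.8 to 14.2 FPKM in mock and from 14.0 to 15.8 in Slpi libraries (0.09, interval -0.02 to 0.21). *Pfkfb3* ran from 6.54 to 7.06 and from 5.98 to 6.58 FPKM (-0.10, interval -0.22 to 0.02). *Aldoa* ran from 230 to 238 and from 217 to 239 FPKM (-0.06, interval -0.15 to 0.04). *Eno1* ran from 92.6 to 106 and from 97.6 to 109 FPKM (0.03, interval -0.10 to 0.17), and together with *Eno1b* from 216 ± 3.98 to 227 ± 9.23 FPKM (means ± SD, log2 difference 0.07). For each of these genes the groups overlapped, and the intervals reach no further than 0.22 from 0 on the log2 scale. *Pfkl* was called higher without Slpi replicate 3 and *Aldoa* lower without Slpi replicate 1 and after quantile normalization or rescaling, while *Pfkfb3* was called lower after rescaling.

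**Figure D3:**
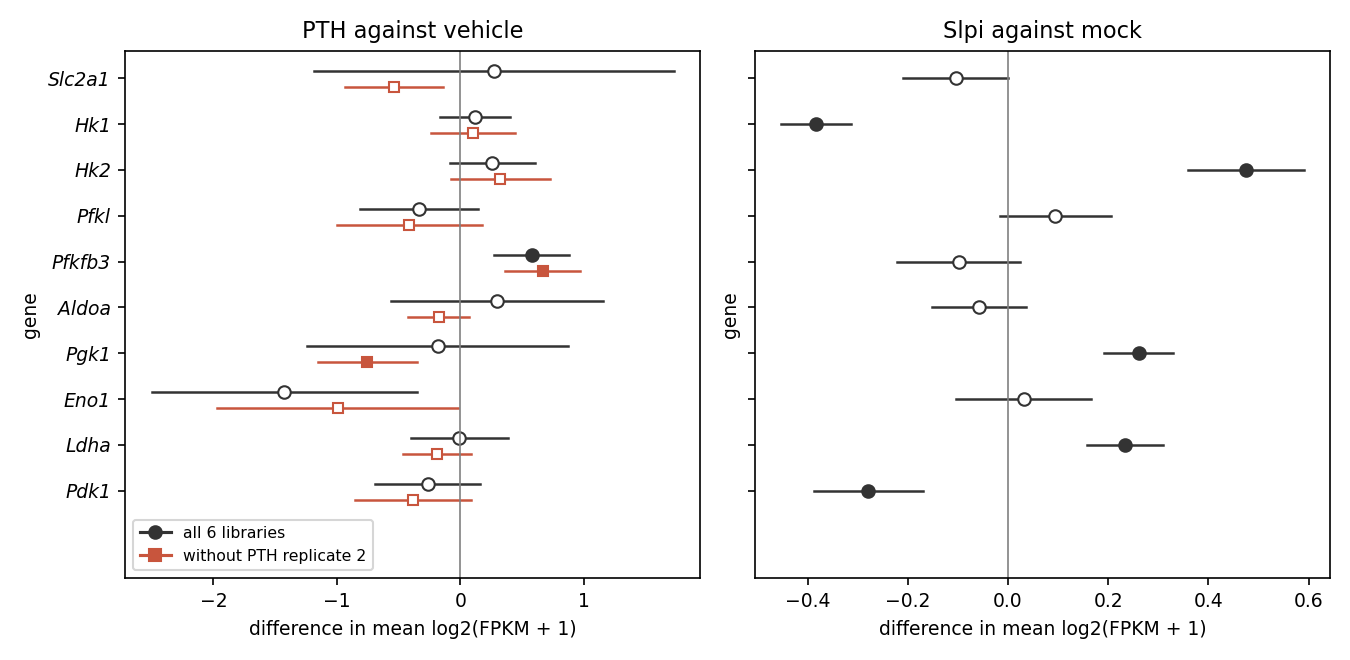
Difference in mean log2(FPKM + 1) with its 95% interval from limma for each gene, PTH minus vehicle on the left and Slpi minus mock on the right, filled symbols marking an adjusted p under 0.05. On the left the red squares leave out PTH replicate 2. *Slc2a1*, *Aldoa* and *Pgk1* narrow and shift to lower values there, *Pfkfb3* stays higher, and the right-hand axis spans a much smaller range.

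Across libraries of the in vitro experiment the order of levels was *Ldha* (397 FPKM in mock, 467 in Slpi), *Aldoa* (235, 226), *Pgk1* (178, 214), *Eno1* (101, 103), *Hk1* (40.3, 30.7), *Slc2a1* (18.0, 16.7), *Pfkl* (14.0, 15.1), *Hk2* (9.17, 13.1), *Pfkfb3* (6.87, 6.36) and *Pdk1* (6.11, 4.87). The order was the same in both groups, and no neighbouring pair overlapped in either group. The place of *Eno1* depends on how reads were divided between it and *Eno1b*. The copies together measured 216 ± 3.98 FPKM in mock and 227 ± 9.23 FPKM in Slpi libraries. That sum lay above *Pgk1* in both groups, and in Slpi libraries its range overlapped with that of *Aldoa*. *Pfkfb3* held 37.0% ± 0.998 of its family in mock and 36.2% ± 1.48 in Slpi libraries, and *Pfkl* 24.6% ± 0.604 against 30.2% ± 0.630 of the phosphofructokinase subunits, the latter without overlap (exact permutation p = 0.1).

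**Figure D4:**
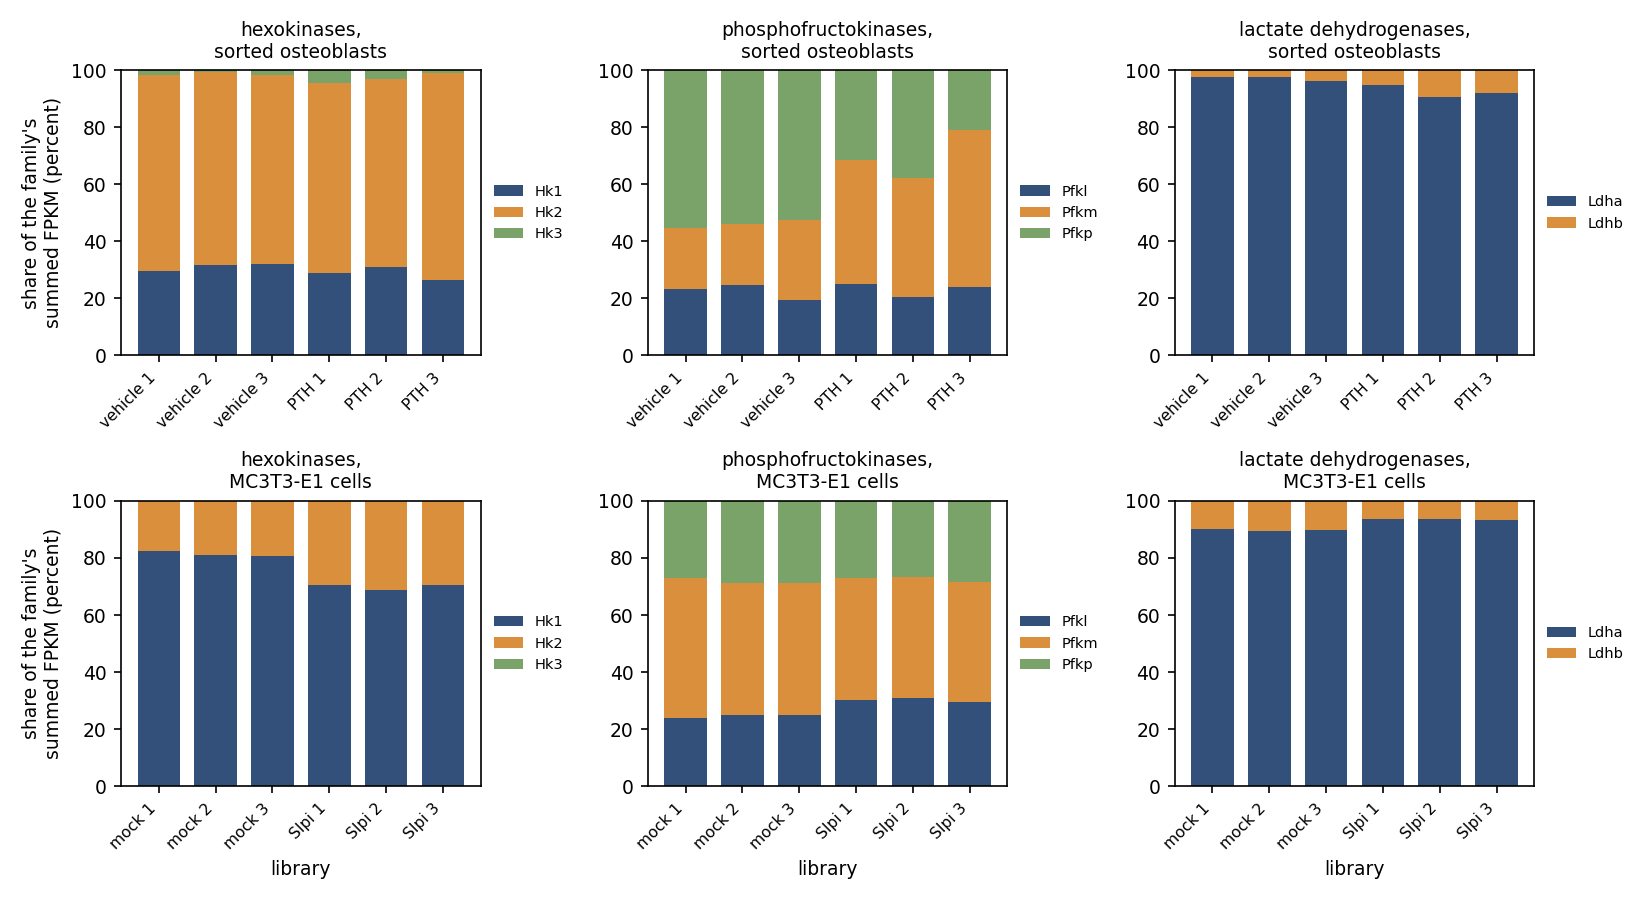
Share of each isozyme gene in the summed FPKM of its family, in percent, for hexokinases, phosphofructokinases and lactate dehydrogenases in each osteoblast library (top row) and each MC3T3-E1 library (bottom row). *Pfkm* gains on *Pfkp* in the PTH libraries, from 23.7% to 46.8% on average, and *Hk2* gains on *Hk1* in the Slpi libraries, from 18.5% to 29.9%.

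Genes next to glycolysis moved in both directions with *Slpi*, as did a large part of the genome, with 31.9% of all genes called higher and 28.9% lower. Of 11 further glycolytic enzymes tested, 3 rose and 5 fell, with *Eno3*, the muscle enolase, rising most (15.1 ± 0.864 to 23.3 ± 1.30 FPKM, log2 difference 0.59, adjusted p = 4.71e-05) and *Ldhb* and *Eno2* among those that fell. With libraries rescaled to equal sums, 1 of the 11 was called higher and 7 lower. The other glucose transporters *Slc2a8*, *Slc2a6* and *Slc2a9* fell (log2 differences -0.51, -0.43 and -0.31), 3 of the 4 tested. *Slc16a1*, the lactate transporter, had the widest change of these lists. It was at 5.07, 5.43 and 5.35 FPKM in mock and 12.5, 14.6 and 12.5 FPKM in Slpi libraries (log2 difference 1.17, SE 0.06, adjusted p = 4.57e-06), opposite in sign to its difference in the PTH-treated osteoblasts. Its chaperone *Bsg* fell slightly (-0.08, adjusted p = 0.0441), a call lost without mock replicate 1, 2 or 3 or Slpi replicate 2 or 3 (adjusted p = 0.0730 to 0.153).

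The called genes of the tricarboxylic acid cycle lay on 1 side, 9 of 16 higher and 0 lower beside 31.9% and 28.9% of all genes, with a median log2 difference of 0.12, but with libraries rescaled to equal summed FPKM 5 were higher and 3 lower (median 0.03) and after quantile normalization 7 and 2. Those higher under every scaling included *Idh3a* (23.5 ± 0.640 to 33.3 ± 1.69 FPKM, log2 difference 0.48, adjusted p = 4.62e-05), *Sdhb* (0.30) and *Cs*, citrate synthase (0.30). Of the 10 genes of the pyruvate dehydrogenase list, 4 were called higher, all subunits of the complex (*Pdha1*, *Dlat*, *Dld* and *Pdhx*, log2 differences of 0.13 to 0.16), a count that went to 0 in limma after rescaling to equal sums (0 also at an unadjusted p under 0.05), and 3 were lower, the kinases *Pdk2* and *Pdk4* and the phosphatase *Pdp2*. In gluconeogenesis 2 of 3 fell (*Pcx* and *G6pc3*). Of 8 genes tested in glycogen metabolism 0 were called higher and 4 lower, among them *Pygb*, *Gys1* and *Ugp2*. These glycogen counts were the same after rescaling to equal sums, quantile normalization or median centring. In the pentose phosphate pathway *Tkt*, *Rpe* and *Rpia* rose and *G6pdx*, its entry enzyme, fell (-0.18, adjusted p = 0.00440). After rescaling to equal sums 1 gene of this pathway was called higher and 3 lower, and *Rpia* lost its call (limma, adjusted p = 0.359). Among HIF and its hydroxylases *Egln1* and *Vhl* rose and *Hif1a*, *Arnt2* and *Egln3* fell, which became 1 higher and 4 lower after rescaling to equal sums. Of 11 HIF targets outside glycolysis 4 rose and 4 fell, near the shares over all genes, with a median of -0.01. *P4ha1* rose (0.35, adjusted p = 5.02e-05) and *Ndrg1* fell (-0.49, adjusted p = 9.28e-06). Cell-cycle markers were higher in the same Slpi libraries, and their part in these differences was not tested. Genes in this paragraph beyond the 3 with the largest difference of a list were named to complete counts, after their values were seen.

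**Figure D5:**
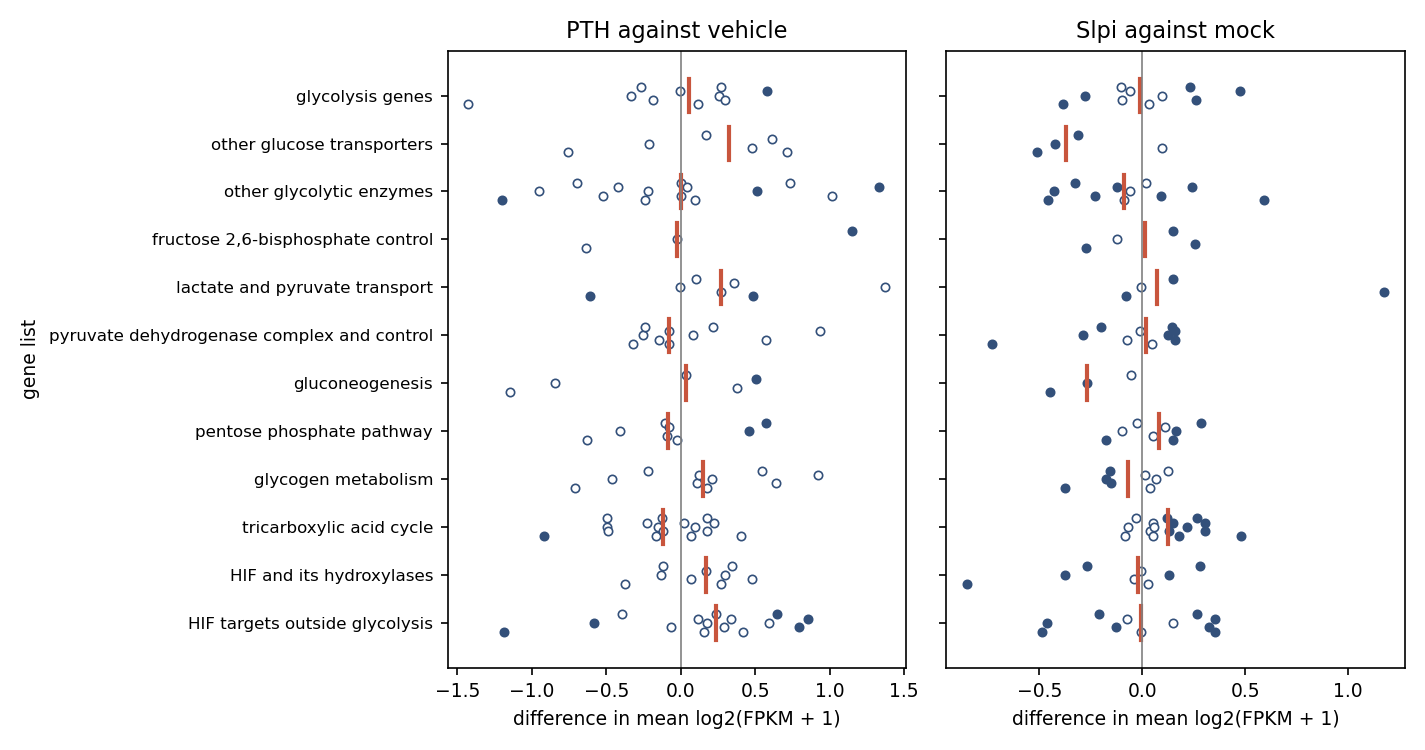
Difference in mean log2(FPKM + 1) of each tested gene in the glycolysis list and 11 neighbouring lists, PTH minus vehicle on the left and Slpi minus mock on the right, with filled circles for an adjusted p under 0.05 and a red bar at each list's median. With PTH most genes are open circles spread around 0, and with *Slpi* the tricarboxylic acid cycle has 9 filled circles above 0 and none below, a split that became 5 and 3 after rescaling libraries to equal sums.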

How the data were processed

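The authors sequenced 12 mouse libraries as single-end reads of 75 bases, aligned them to mm10 (TopHat2 2.0.13, Bowtie2 2.2.3, SAMtools 0.1.19) and obtained FPKM per gene with Cuffnorm (Cufflinks 2.2.1), per the labels and the study's methods. The deposited values are FPKM, normalized separately within each experiment; read counts were not used here, the gene annotation behind them is not given in the sources used here, and Cuffnorm divides reads that fit several genes, which touches *Eno1* and *Eno1b* and genes with processed pseudogenes such as *Pgk1*, *Ldha* and *Aldoa*. The labels name a stranded mRNA kit for MC3T3-E1 cells and a low-input full-length kit for sorted osteoblasts.

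Genes at 1 FPKM or more in at least 1 of 6 libraries were tested on log2(FPKM + 1) with limma 3.58.1 (R 4.3.3; eBayes with a trend), with Benjamini-Hochberg adjustment over all tested genes (13004 and 11466) and a call at an adjusted p under 0.05; the pseudocount understates the change of low genes. The script was tested on simulated data. Isozyme shares were compared by two-sided exact permutation tests over libraries (scipy 1.17.1). Depth was read from the FPKM step of 1 read among transcripts of at least 1500 bases. The next step lay at 1.97 to 2.01 times that step. Floors of reads cover counting error only. The intervals given with log2 differences come from limma and reflect the spread between libraries. Gene positions are from GENCODE M21 and promoters from RefSeq. The named genes were the 10 glycolysis genes, isozymes needed for shares, *Slpi*, and up to 3 called, non-overlapping genes with the largest difference from each list. Not every call in these lists is reported here. Members, lists and tests were chosen with earlier results of these data known. Alternatives were 9 fits per comparison (a replicate block, filters, pseudocount 0.1, variance models and scalings), each library left out, and, chosen after seeing the data, *Eno1* and *Eno1b* summed.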

Additional observations from a re-analysis of the deposited data

How the results depend on the processing

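In PTH against vehicle, the number of glycolysis genes called was 1 and ran from 0 to 2 when each library was left out; it was 0 with no filter on low FPKM and 0 with an unmoderated linear model, each time with 1 gene at an unadjusted p under 0.05 in limma's fit. The median log2 difference ran from -0.29 to 0.11 over the left-out libraries, the lowest without PTH replicate 2. Signs turned for *Slc2a1* (-0.54 without PTH replicate 2, at most 0.73 over left-out libraries), *Aldoa* (-0.17 to 0.54, lowest without PTH replicate 2), *Pgk1* (-0.75 to 0.21, highest without PTH replicate 3), *Ldha* (-0.19 to 0.13, and 0.082 with median centring) and *Eno1b* (-0.65 to 0.94, and -0.57 with pseudocount 0.1 and -0.048 after rescaling to equal summed FPKM). In Slpi against mock, 8 genes rather than 5 were called after that rescaling, with a median of -0.11, and 5 to 7 with a library left out (median -0.04 to 0.01). *Eno1* turned to -0.062 and -0.018 after rescaling and quantile normalization, and ran from -0.027 to 0.069 over left-out libraries. The causes were not tested.

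Over all genes, PTH calls fell from 830 higher and 1151 lower to 10 and 8 with no filter (23284 genes tested), to 0 and 1 with the unmoderated model (1781 higher and 2042 lower at an unadjusted p under 0.05), to 88 and 217 without PTH replicate 1, to 451 to 511 higher and 647 to 828 lower without vehicle replicate 3, PTH replicate 2 or PTH replicate 3, and to 1 and 0 or 0 and 0 without vehicle replicate 1 or 2 (3187 and 3108 at an unadjusted p under 0.05). Deviations of same-numbered libraries were weakly correlated (r of 0.03, 0.07 and 0.10, and 0.04, -0.05 and 0.00 in MC3T3-E1 cells; not every library correlated best with its own number), so replicate numbers were not taken as pairs; with a replicate block 1 gene was called with PTH and 6 with *Slpi*, adding *Slc2a1* (adjusted p = 0.0377). Share comparisons whose groups did not overlap kept their direction with each library left out, as they must. Those with overlap did not all keep it. Without PTH replicate 2 the share difference of *Slc2a1* turned from 1.65 to -12.0 percentage points and that of *Eno1* from -12.4 to 0.41. The *Eno1* share was taken over *Eno1*, *Eno2* and *Eno3* and left out *Eno1b*. In PTH replicate 2 *Eno1b* was at 8.11 FPKM and *Eno1* at 5.08 FPKM, so this share depends on the uncertain division of reads between them. The *Hk2* share turned without PTH replicate 3, being 66.8% and 66.1% in PTH replicates 1 and 2 beside a vehicle mean of 67.5%. Depth limits the osteoblast values most, at 28.7 reads per kilobase for *Pdk1*.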
